A study of Mus musculus with 16 samples.

Results

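The genes described here code for myeloid lectins, Fc receptors, paired receptors and related surface receptors of innate immune cells. They were chosen by their symbols alone. Every gene in the 4 deposited lists whose symbol begins with Clec, Siglec, Lilr, Pilr, Pira, Pirb, Fcgr, Fcer, Ms4a, Sirp, Trem, Mrc1, Msr1, Marco, Adgre, Ccr, Cxcr, C3ar1, C5ar or Fpr was taken, apart from Clec4d, Trem1 and Cxcr2. This gave 69 of the 5171 genes that the lists hold. By role they were 6 Fc receptors, 14 C-type lectins, 2 Siglecs, 17 paired immunoglobulin-like receptors, 4 scavenger, mannose and adhesion receptors, 14 chemoattractant receptors and 12 MS4A proteins. Mrc1 was not among the 69 genes, so the scavenger, mannose and adhesion class held no mannose receptor. All 69 are protein coding in the mouse annotation. It contains 115 protein-coding genes with such symbols, and 43 of them were not analysed here.

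RNA was sequenced from whole colon of male C57BL/6 mice. In the KO mice, Cre recombinase under the villin promoter (Vil-Cre) had removed loxP-flanked exons of Smarcad1, a chromatin remodelling ATPase, from the intestinal epithelium, a deletion that leaves the gene intact in immune cells. The KO mice descended from 1 targeted line. All mice, controls included, had been given microbiota of donor mice from a second facility. Colitis was induced by dextran sodium sulphate (DSS), which erodes the mucus layer of the colon, at 1% in the drinking water for 15 days, and control mice received none. There were 3 libraries each of WT control and KO control mice, and 5 each of WT colitis and KO colitis mice. The sources used here do not give the age of the mice. The series text speaks of small intestinal tissue, whereas the labels of all 16 libraries give colon.

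Innate immune cells read their surroundings through these receptors. Fc receptors bind antibody, C-type lectins and Siglecs bind sugars, scavenger receptors bind modified lipoproteins and bacterial surfaces, and chemoattractant receptors guide cells along gradients of chemokines, complement fragments or formylated peptides. Many come in pairs, in which an activating member signals through an adapter with a tyrosine-based activation motif (Tyrobp or Fcer1g) and the kinase Syk, and an inhibitory member recruits phosphatases through an inhibitory motif (ITIM) in its own tail. In the colon most of them are carried by macrophages, monocytes, dendritic cells and neutrophils, though some of the symbols belong to lymphocyte, endothelial or epithelial proteins.

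The values are the authors' means over the libraries of a group, on the log2 RPM scale (a share of the reads of each library, not corrected for gene length), without the value of any single library. No spread between mice could therefore be given, and no difference was tested here. A gene is said to rise or fall only where it was in the authors' list of colitis against control for that genotype (false discovery rate 0.05 in DESeq2). Differences between genotypes are descriptions. The geometric mean library size was 8.005 to 10.1 M reads, and a mean of 3 reads per library, taken as a floor, lay between −1.75 and −1.42 log2 RPM. Smarcad1 itself had a mean of 5.77 in WT control, 4.59 in KO control, 5.68 in WT colitis and 4.55 in KO colitis. Because whole tissue was sequenced, fewer cells of a type and less RNA per cell cannot be told apart in any of these values.

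With colitis 60 of the 69 genes rose in WT and none fell. In the KO 63 rose and 2 fell, Clec14a and Clec2e. Of all 5171 genes, 36.6% were listed as rising in WT and 44.8% in KO, while 26.4% and 33.6% were listed as falling. The list of WT as a whole held 63.1% of all genes and that of KO 78.4%, so that presence in a list is common by construction. As to direction, 56 of the 69 genes were in both lists and rose in both genotypes, against 26.9% of all 5171 genes. The median over the receptors was a change of 1.74 log2 units for WT and 1.62 for KO, compared with 0.13 and 0.19 over all listed genes. A listed rise of at least 1 log2 unit, a doubling, was met by 17.3% of all genes in WT and by 14.9% in KO. Of the 69 receptor genes 54 met it in WT and 55 in KO. Irrespective of the lists, the means of 56 receptor genes were at least 1 unit higher in colitis in WT and those of 57 in KO, against 953 and 827 of all 5171 genes. The means of 67 of the 69 were higher in colitis in both genotypes.

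**Figure D1:**
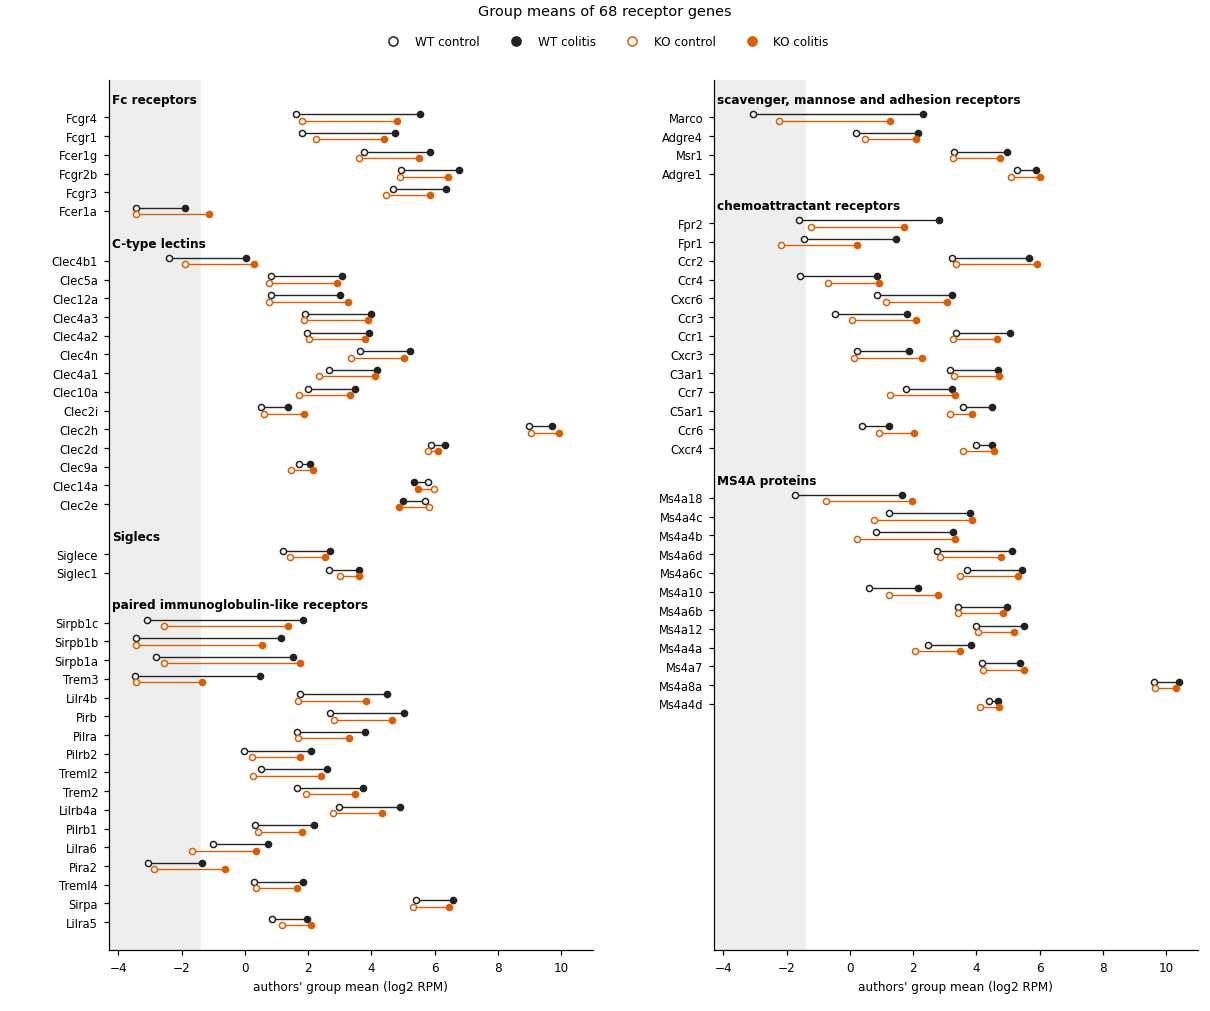
The authors' 4 group means of 68 of the 69 receptor genes on the log2 RPM scale, by role and, within a role, in the order of the WT change. Open circles stand for control and filled circles for colitis, black for WT and orange for KO, and the grey area marks means below the highest of the 4 floors of 3 reads per library (−1.42). Lines run to the right for all but Clec14a and Clec2e. Values are not corrected for length, so positions of different genes are not comparable.

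The Fc receptors carried some of the largest changes. Fcgr4, an activating receptor for IgG, had means of 1.63 in WT control and 5.53 in WT colitis, and of 1.81 and 4.82 in the KO groups. This is a rise of 14.9-fold in WT and 8.05-fold in KO, from 31.2 to 369 reads per library and from 34.2 to 278. Fcgr1, the high-affinity receptor for IgG, had means of 1.81 and 4.75 in WT and of 2.25 and 4.40 in KO. It rose 7.71-fold in WT and 4.44-fold in KO, and its KO mean was the higher one in control and the lower one in colitis.

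Fcgr2b, the inhibitory receptor for IgG, went from 4.93 to 6.78 in WT and from 4.91 to 6.42 in KO. Its activating neighbour Fcgr3 went from 4.68 to 6.36 in WT and from 4.46 to 5.83 in KO. For Fcer1g, the signalling chain on which the activating receptors depend, the means were 3.75 and 5.86 in WT and 3.61 and 5.50 in KO. These 3 genes rose 3.20- to 4.32-fold in WT and 2.60- to 3.70-fold in KO. Fcer1a, the IgE-binding chain of mast cells and basophils, stood apart: it was at the level of 1 read in 1 of 3 WT control libraries and 0 reads in all 3 KO controls, at 2.14 reads per library in WT colitis and at 4.54 in KO colitis. It was in the list of KO alone, where it was at least 1.50-fold higher in colitis, and no fold is given for WT because both means were under the floor.

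Corrected for exon length, the order of the Fc receptor genes changed between control and colitis. In WT control the levels were 3.94 log2 RPM per kb for Fcer1g, 3.89 for Fcgr3, 2.39 for Fcgr2b, 1.30 for Fcgr4 and 0.44 for Fcgr1. In WT colitis they were 6.05, 5.56, 4.25, 5.20 and 3.38 in the same order of genes. Fcgr4 thus stood 1 place higher, above Fcgr2b. The same exchange was seen in KO, where Fcgr2b and Fcgr4 were at 2.37 and 1.48 in control and at 3.89 and 4.49 in colitis. The exchange depended on the correction, with 5.79 kb of annotated exon for Fcgr2b and 1.26 kb for Fcgr4. Uncorrected, the mean of Fcgr2b was the higher one in every group.

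Fcgr2b, Fcgr4, Fcgr3 and Fcer1g lie together on chr1:170958617-171234365. All 4 had a smaller change in KO, by 0.22 to 0.89 log2 units. All 4 also had a lower mean in KO colitis than in WT colitis, by 0.36 for both Fcgr2b and Fcer1g, 0.53 for Fcgr3 and 0.71 for Fcgr4 (differences of −0.36, −0.36, −0.53 and −0.71). None of them was in the authors' list of KO against WT in colitis.

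Among the 17 paired immunoglobulin-like receptors 16 rose in WT and 14 in KO, and no mean was lower in colitis in either genotype. The Sirpb1 genes, which code for activating receptors coupled to Tyrobp, went from almost no reads to clear expression. Sirpb1a, Sirpb1b and Sirpb1c lie within chr3:15371653-15848528. Stretches upstream of their RefSeq starts are shown because they are nearly alike in letters, and the 3 genes were also the paired receptors with the largest changes. The sequences are from RefSeq (GRCm38.p6, minus strand, written 5′ to 3′), and the capitals mark the longest run that all 3 share.

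Sirpb1a, chr3:15426521-15426677: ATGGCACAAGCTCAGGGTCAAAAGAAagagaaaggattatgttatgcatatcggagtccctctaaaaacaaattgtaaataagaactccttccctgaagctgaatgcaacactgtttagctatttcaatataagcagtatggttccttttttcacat

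Sirpb1b, chr3:15575066-15575222: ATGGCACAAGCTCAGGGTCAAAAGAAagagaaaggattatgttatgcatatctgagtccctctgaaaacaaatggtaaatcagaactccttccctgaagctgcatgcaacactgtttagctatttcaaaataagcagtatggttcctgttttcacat

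Sirpb1c, chr3:15848529-15848685: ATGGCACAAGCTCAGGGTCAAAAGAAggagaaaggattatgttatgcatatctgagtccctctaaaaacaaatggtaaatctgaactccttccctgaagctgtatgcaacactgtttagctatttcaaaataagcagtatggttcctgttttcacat

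Over these 157 bases Sirpb1a and Sirpb1b were identical at 95.5% of positions, Sirpb1a and Sirpb1c at 94.9% and Sirpb1b and Sirpb1c at 97.5%. Copies this close can share reads, and since only uniquely mapped reads were counted, how reads were divided among the 3 genes is uncertain.

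Sirpb1b had 1 read in 1 of 3 WT control libraries, no read in any KO control library, and 17.8 and 14.4 reads per library in WT and KO colitis. Sirpb1c had 2 reads in 1 of 3 WT control libraries, while the KO control mean corresponded to 6 reads over the 3 libraries. In colitis it was at 28.3 reads per library in WT and 25.2 in KO. Sirpb1a had 5 reads over the 3 WT control libraries and 6 over the KO controls, against 23.0 and 32.8 reads per library in colitis. Against the floor, Sirpb1a, Sirpb1b and Sirpb1c were at least 9.68-, 7.48- and 11.9-fold higher with colitis in WT. In KO they were at least 10.8-, 4.76- and 8.31-fold higher. The 3 genes rose in both genotypes, but their colitis means were not ordered alike. Sirpb1a was higher in KO colitis (1.52 in WT, 1.73 in KO), and Sirpb1b (1.15 and 0.55) and Sirpb1c (1.82 and 1.35) were lower.

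Trem3, an activating receptor of the Trem group that also couples to Tyrobp, had 0 reads in all 3 WT and all 3 KO control libraries. Its mean in WT colitis was 0.47 log2 RPM, or 11.1 reads per library, and in KO colitis −1.35, or 3.86 reads. It rose in WT, by at least 4.66-fold. In KO it was not in the list, with a value at least 1.27-fold above control, and at 3.86 reads the KO mean lay just above the floor. Its neighbour Trem2, a lipid-sensing receptor of macrophages, went from 1.66 to 3.73 in WT and from 1.94 to 3.47 in KO. Treml2 went from 0.52 to 2.60 in WT and from 0.26 to 2.39 in KO, so that its changes of 2.09 and 2.14 were nearly equal. Treml4 went from 0.29 to 1.82 in WT and from 0.34 to 1.64 in KO.

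Pirb, an inhibitory receptor for MHC class I, had means of 2.70 and 5.03 in WT and of 2.81 and 4.64 in KO. It rose 5.03-fold and 3.54-fold, respectively. The activating genes beside it were far lower. Lilra6 had means of −1.01 and 0.73 in WT and of −1.67 and 0.34 in KO. Pira2 had 3 reads over the 3 control libraries of each genotype and means of 3.11 reads per library in WT colitis and 6.41 in KO colitis. Lilra6 rose in WT only by the lists and Pira2 in KO only, where it was at least 2.11-fold higher, and the difference between genotypes was not tested for either.

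The 3 genes hold the letters GAGGAAGT upstream of their RefSeq starts. This octamer contains the GGAA core that ETS family factors bind, among them PU.1, a regulator of myeloid genes. It was searched on both strands (ACTTCCTC on the other) from 250 bases before to 50 bases after the start. The stretches are shown with that of Fcgr4, which has it on the other strand, because Pirb, Pira2 and Lilra6 hold the octamer in nearly the same letters around it and Fcgr4 had the largest change of the Fc receptors. All are from RefSeq (GRCm38.p6) on the strand of the gene, 5′ to 3′, with the octamer in capitals.

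Pirb, chr7:3720445-3720562, minus strand: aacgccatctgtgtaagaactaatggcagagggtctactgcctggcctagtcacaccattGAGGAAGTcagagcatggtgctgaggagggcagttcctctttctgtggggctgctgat

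Pira2, chr7:3845142-3845259, minus strand: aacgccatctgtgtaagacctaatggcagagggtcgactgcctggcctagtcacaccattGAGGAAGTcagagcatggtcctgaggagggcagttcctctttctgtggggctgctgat

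Lilra6, chr7:3915594-3915711, minus strand: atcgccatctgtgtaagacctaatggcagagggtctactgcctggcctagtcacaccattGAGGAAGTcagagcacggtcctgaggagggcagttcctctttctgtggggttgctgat

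Fcgr4, chr1:171018822-171018919, plus strand: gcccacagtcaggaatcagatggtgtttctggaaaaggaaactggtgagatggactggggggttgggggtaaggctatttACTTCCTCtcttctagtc

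The stretches of Pirb, Pira2 and Lilra6 were identical at 95.8% to 97.5% of 118 bases, although Pirb had 261 reads per library in WT colitis, Lilra6 13.3 and Pira2 3.11. Pira and Pirb coding sequences are close copies too, so reads that fit several of them were not counted and their split is uncertain. Of the 57 receptor genes with a RefSeq promoter entry, 6 held the octamer (10.5%): Adgre4, Cxcr3, Fcgr4, Lilra6, Pira2 and Pirb. The share was 5.18% of the listed genes with an entry and 3.69% of all genes with one. Since 3 of the 6 are copies of one another, they do not count as separate occurrences. A match describes the letters and is no evidence of binding.

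Lilrb4a, an inhibitory receptor, and Lilr4b, its relative without an ITIM, overlap on chr10:51480612-51496613, and reads in the shared part cannot be assigned. Lilrb4a went from 2.96 to 4.89 in WT and from 2.79 to 4.33 in KO. Lilr4b went from 1.73 to 4.50 in WT and from 1.69 to 3.84 in KO. Both had nearly equal means in the control groups and a lower mean in KO colitis, by 0.56 and 0.67 log2 units (differences of −0.56 and −0.67).

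The inhibitory Pilra and the activating Pilrb1 and Pilrb2, a pair that binds sialylated proteins, lie within chr5:137821952-137871815. Pilra went from 1.63 to 3.80 in WT and from 1.66 to 3.27 in KO. Pilrb1 went from 0.33 to 2.17 and from 0.42 to 1.80, and Pilrb2 from −0.04 to 2.09 and from 0.23 to 1.73. All 3 rose in both genotypes, with changes 0.46 to 0.62 units smaller in KO. Sirpa, the inhibitory receptor for the "do not eat me" protein Cd47, had the highest means of the paired receptors. It went from 5.39 to 6.58 in WT and from 5.30 to 6.46 in KO, rises of 2.27- and 2.24-fold, which were close to equal. Lilra5 went from 0.84 to 1.95 in WT, a rise, and from 1.18 to 2.07 in KO, where it was not listed.

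For the paired receptors as a class the median was 2.09 in WT against 1.82 in KO, and the change was smaller in KO for 14 of the 17 genes. The exceptions were Treml2, Lilra6 and Pira2. Raising means under the floor to 3 reads lowered the KO median to 1.54 and left that of WT at 2.09.

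Receptors of either polarity rose together. All 9 genes counted as inhibitory (Fcgr2b, Pirb, Lilrb4a, Lilr4b, Pilra, Sirpa, Clec4a2, Clec12a and Siglece) rose in both genotypes, with a median of 1.96 in WT and 1.61 in KO. Without Lilr4b, which lacks an ITIM, the medians were 1.94 and 1.57. Of 20 genes counted as activating, 17 rose in WT and 17 in KO, with medians of 2.08 and 2.05. With means raised to 3 reads the KO median of the activating genes was 1.60. The change was smaller in KO for 8 of the 9 inhibitory genes, all but Clec12a, and for 14 of the 20 activating genes.

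The scavenger receptor Marco, which binds bacteria and particles, showed the largest change of all 69 genes in WT with means as deposited, and came second to Fpr2 with means raised to the floor. It had 3 reads over the 3 WT control libraries, and the KO control mean corresponded to 2.08 reads per library. Colitis means were 39.5 reads per library in WT (2.30 log2 RPM) and 23.8 in KO (1.27). Marco was at least 16.6-fold higher with colitis in WT and at least 7.86-fold higher in KO. Msr1, the other class A scavenger receptor, went from 3.29 to 4.95 in WT and from 3.24 to 4.75 in KO, rises of 3.16- and 2.84-fold.

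The adhesion receptors of the group were moderate by comparison. Adgre1, the macrophage antigen F4/80, went from 5.30 to 5.89 in WT and from 5.10 to 6.02 in KO. It was the gene of this group whose change was larger in KO, by 0.33 units. Adgre4 went from 0.20 to 2.16 in WT and from 0.47 to 2.09 in KO.

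The formyl peptide receptors Fpr1 and Fpr2, by which neutrophils and monocytes sense bacterial and mitochondrial peptides, are neighbours on chr17:17876471-17893952. Fpr2 had means of −1.62 and 2.82 in WT and of −1.23 and 1.71 in KO, rises of 21.6- and 7.67-fold. Its control means were 3.30 reads per library in WT and 4.16 in KO, just above the floor, so these folds are imprecise. Fpr1 had means of −1.46 and 1.46 in WT, a rise of 7.56-fold. In KO it went from 2.15 to 11.6 reads per library, at least 3.84-fold higher. In colitis the KO means were 1.22 lower for Fpr1 and 1.11 lower for Fpr2 on the log2 scale (differences of −1.22 and −1.11), and neither gene was listed for that comparison. The receptors of the complement fragments changed less. C5ar1 went from 3.56 to 4.48 in WT and from 3.17 to 3.85 in KO, and C3ar1 from 3.16 to 4.69 and from 3.30 to 4.71.

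Of the chemokine receptors, Ccr2, which draws monocytes from the blood, had a large rise. It went from 3.22 to 5.67 in WT and from 3.35 to 5.92 in KO, 5.47- and 5.91-fold. Cxcr6, a receptor of T cells for Cxcl16, went from 0.85 to 3.22 in WT and from 1.13 to 3.05 in KO. Ccr1, a receptor of monocytes and neutrophils, went from 3.36 to 5.07 and from 3.24 to 4.66. Ccr2, Cxcr6 and Ccr1 lie close together on chromosome 9 with Ccr3, and all 4 rose in both genotypes. Of these 4, the change was larger in KO for Ccr2 alone. Ccr3, the eotaxin receptor of eosinophils, went from −0.48 to 1.79 in WT and from 0.06 to 2.10 in KO.

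Ccr7, Cxcr3 and Cxcr4 had larger changes in KO. Ccr7, which leads dendritic cells and T cells to lymph nodes, went from 1.77 to 3.23 in WT and from 1.27 to 3.32 in KO. Cxcr3, a receptor of effector T cells, went from 0.23 to 1.87 in WT and from 0.13 to 2.27 in KO. Cxcr4, the receptor for Cxcl12, went from 3.99 to 4.50 in WT and from 3.56 to 4.56 in KO. The changes of these 3 genes were 0.60, 0.50 and 0.49 units larger in KO. For Ccr7 and Cxcr4 the colitis means of the genotypes differed by 0.10 and 0.06 units, and the lower KO control means (by 0.50 and 0.43, differences of −0.50 and −0.43) made up most of the larger change. Ccr6, a receptor of B cells and T helper 17 cells, was listed in KO only and had the means 0.39 and 1.24 in WT and 0.91 and 2.03 in KO. Not all receptors known from lymphocytes were of this order, since the change of Cxcr6 was 0.44 units smaller in KO (a difference of −0.44). Ccr4, a receptor of T cells, went from −1.56 to 0.86 in WT and from −0.69 to 0.93 in KO, a change smaller in KO (a difference of −0.81) with nearly equal colitis means.

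**Figure D2:**
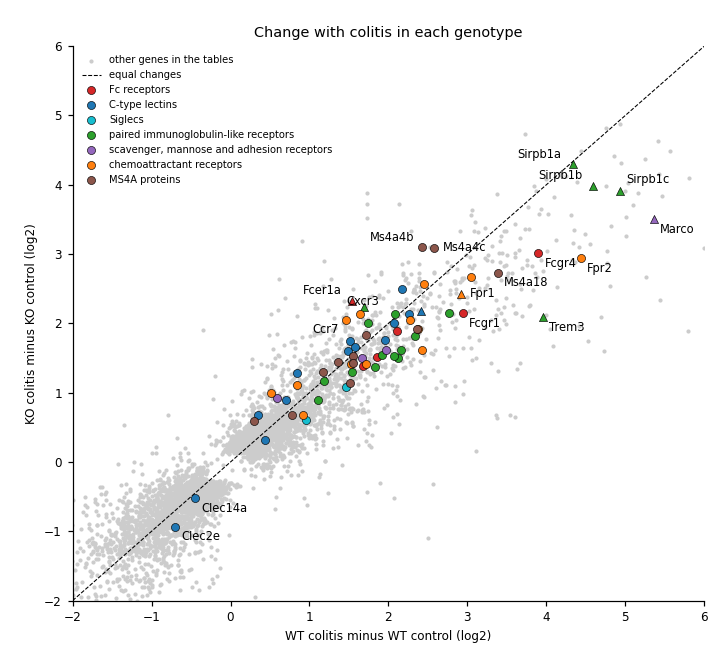
Change with colitis (log2, colitis minus control) in KO on the vertical axis against WT on the horizontal axis. Each coloured point is 1 of the 69 receptor genes by role, triangles are genes with a control mean at or under 3 reads per library, grey points are the other genes of the tables (those beyond the axes are not drawn), and the dashed line marks equal changes. Marco, Trem3, Fpr2, Fcgr4 and Sirpb1c lie furthest below the line, and Ms4a4b, Ms4a4c, Ccr7 and Cxcr3 lie above it.

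The C-type lectins fell into genes of myeloid cells, all of which rose in at least 1 genotype, and genes known from epithelium or endothelium, which varied. Clec5a, an activating receptor coupled to Tyrobp, went from 0.81 to 3.07 in WT and from 0.76 to 2.90 in KO, 4.77- and 4.41-fold. Clec12a, an inhibitory receptor for uric acid crystals, went from 0.83 to 3.00 in WT and from 0.76 to 3.26 in KO, 4.51- and 5.64-fold. It was the inhibitory gene with the larger change in KO.

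The Dectin-2 group of lectins lies beside C3ar1 on chr6:122847138-123247021. Clec4n (Dectin-2 itself, a receptor for fungal mannans) went from 3.65 to 5.22 in WT and from 3.36 to 5.02 in KO. The inhibitory Clec4a2 went from 1.98 to 3.94 in WT and from 2.04 to 3.80 in KO. Clec4a1, Clec4a3 and Clec4b1 rose as well, so that all 6 genes of the cluster rose in both genotypes. The difference between the 2 changes ranged from −0.23 (Clec4b1) to 0.23 (Clec4a1). Clec4b1 was under the floor in both control groups, and with means raised to the floor its difference turned to 0.21. It had 8.12 reads per library in WT colitis and 12.0 in KO colitis. Clec10a, a galactose-binding lectin of macrophages and dendritic cells, went from 2.00 to 3.49 in WT and from 1.72 to 3.32 in KO. Clec9a, by which cross-presenting dendritic cells sense dead cells, was listed in KO only, with means of 1.70 and 2.05 in WT and of 1.46 and 2.14 in KO.

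The Clec2 genes, ligands of natural killer cell receptors, sit beside Clec12a and Clec9a on chr6:128662385-129424763. Clec2h, which is known from intestinal epithelium, had means of 8.99 and 9.70 in WT and of 9.04 and 9.93 in KO. It rose 1.63- and 1.86-fold. Clec2d went from 5.88 to 6.31 in WT and from 5.79 to 6.11 in KO, and only the KO change was listed. Clec2i had means of 0.52 and 1.36 in WT and of 0.59 and 1.87 in KO, where it rose. Clec2e went the other way. Its means were 5.70 and 5.00 in WT and 5.82 and 4.88 in KO, and it fell by 0.93 in KO. Within 1 cluster there were thus rises and a fall.

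Clec14a, an adhesion protein of blood vessel endothelium, was the other gene with lower means in colitis. It had 5.79 and 5.35 in WT and 5.98 and 5.46 in KO, and fell by 0.52 in KO. Neither Clec14a nor Clec2e was in the list of WT, where the changes were −0.44 and −0.70.

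The Siglecs, receptors for sialic acid, were 2. Siglec1, a marker of resident macrophages, went from 2.66 to 3.62 in WT, where it rose, and from 2.99 to 3.60 in KO, where it was not listed. Siglece, an inhibitory receptor, went from 1.22 to 2.68 in WT and from 1.43 to 2.52 in KO and rose in both.

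All 12 MS4A genes lie on chr19:10962293-11604849, within 643 kb. They code for small proteins that span the membrane several times, and in myeloid cells some of them associate with other receptors. In WT 11 rose and in KO all 12, yet the sizes differed widely within the cluster, from 0.29 (Ms4a4d) to 3.38 (Ms4a18) in WT and from 0.59 to 3.10 in KO. Ms4a18 had means of −1.74 and 1.65 in WT and of −0.76 and 1.97 in KO, 10.4- and 6.65-fold. The WT control mean was 3.04 reads per library, just above the floor.

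Ms4a4b, known from T cells, went from 0.82 to 3.25 in WT and from 0.21 to 3.31 in KO, 5.37- and 8.57-fold. Its neighbour Ms4a4c went from 1.23 to 3.80 in WT and from 0.77 to 3.86 in KO, 5.96- and 8.49-fold. For both genes the colitis means of the genotypes differed by 0.06 units, and the KO control mean was the lower one. Ms4a7, a gene of macrophages, went from 4.19 to 5.37 in WT and from 4.20 to 5.51 in KO. Ms4a6d went from 2.74 to 5.11 and from 2.85 to 4.77.

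Ms4a8a had the highest level of all 69 genes, also when corrected for length. Per kb of exon it was at 8.78 log2 RPM in WT control and 9.55 in WT colitis, followed by Clec2h with 7.55 and 8.26. Both rose by less than 1 unit in either genotype. In WT control the next levels were those of Clec2d (5.60 log2 RPM per kb) and Clec2e (4.63), so that the 4 highest of the 69 genes in untreated WT colon were Clec2 genes and Ms4a8a. In WT colitis Fcer1g (6.05) was level with Clec2d (6.04), and whether neighbours in this order differ beyond their spread was not tested. Ms4a12 went from 4.00 to 5.51 log2 RPM in WT and from 4.06 to 5.20 in KO, and Ms4a10 from 0.60 to 2.16 and from 1.25 to 2.77.

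**Figure D3:**
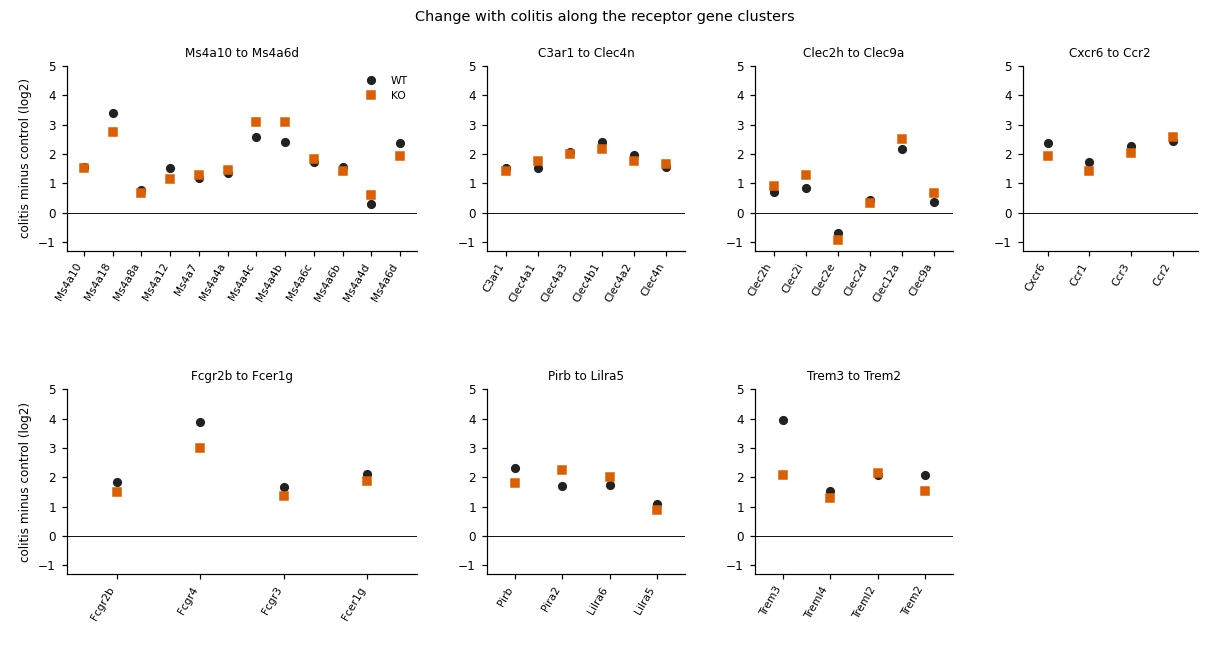
Change with colitis (log2, colitis minus control) along the 7 gene clusters with at least 4 receptor genes, in chromosomal order and evenly spaced and without 1 gene that is not reported by name, with black circles for WT and orange squares for KO. All 4 genes from Fcgr2b to Fcer1g have the WT circle above the KO square, the Ms4a cluster mixes both orders, and Clec2e lies below 0.

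In all, 51 of the 69 genes fell into 11 clusters when neighbours less than 500 kb apart were joined. These 51 had a median of 1.96 for WT and 1.76 for KO, and that of the 18 others was 1.47 and 1.55. Genes of a cluster are often copies of each other and are not independent.

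None of the 69 genes was in the authors' list of KO against WT in control, which held 0.89% of all 5171 genes, or in that for colitis, which held 1.08%. The comparison in colitis shares its libraries with the comparisons of colitis against control. In control the median difference, KO minus WT, was 0.03 log2 units. In colitis it was −0.15, compared with −0.01 over all listed genes. With means raised to the floor, 11 of the 69 genes (15.9%) were lower in KO colitis by at least 0.5 units, compared with 9.61% of all listed genes. These were Trem3, Fpr1, Fpr2, Marco, Fcgr4, Lilr4b, C5ar1, Sirpb1b, Lilrb4a, Fcgr3 and Pilra. A further 4 (5.80%, against 4.91% of all) were higher by as much: Ccr6, Pira2, Ms4a10 and Clec2i.

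The change with colitis was smaller in KO for 44 of the 67 genes with higher means in colitis (65.7%), compared with 1455 of 2735 such genes over the tables (53.2%). The median difference of the changes was −0.20, against −0.02 over all listed genes. By role the median difference was −0.46 for the paired receptors, −0.37 for the Siglecs, −0.32 for the Fc receptors, −0.25 for the scavenger and adhesion receptors and −0.23 for the chemoattractant receptors. It was 0.01 for the C-type lectins and 0.02 for the MS4A proteins. With means as deposited, the largest differences were those of Trem3 (−1.87), Marco (−1.85), Fpr2 (−1.49), Sirpb1c (−1.01) and Fcgr4 (−0.89). With means raised to the floor, Trem3 remained first, Marco was at −1.08 and Fpr1 at −0.98. By the lists 4 genes rose in WT only (Lilra5, Lilra6, Siglec1 and Trem3), and 9 were listed in KO only (Ccr6, Clec14a, Clec2d, Clec2e, Clec2i, Clec9a, Fcer1a, Ms4a4d and Pira2). Of all 5171 genes, 20.9% were in the list of WT only and 36.2% in that of KO only. Absence from a list does not show that a gene did not change, and the difference between genotypes was not tested for any of them.

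**Figure D4:**
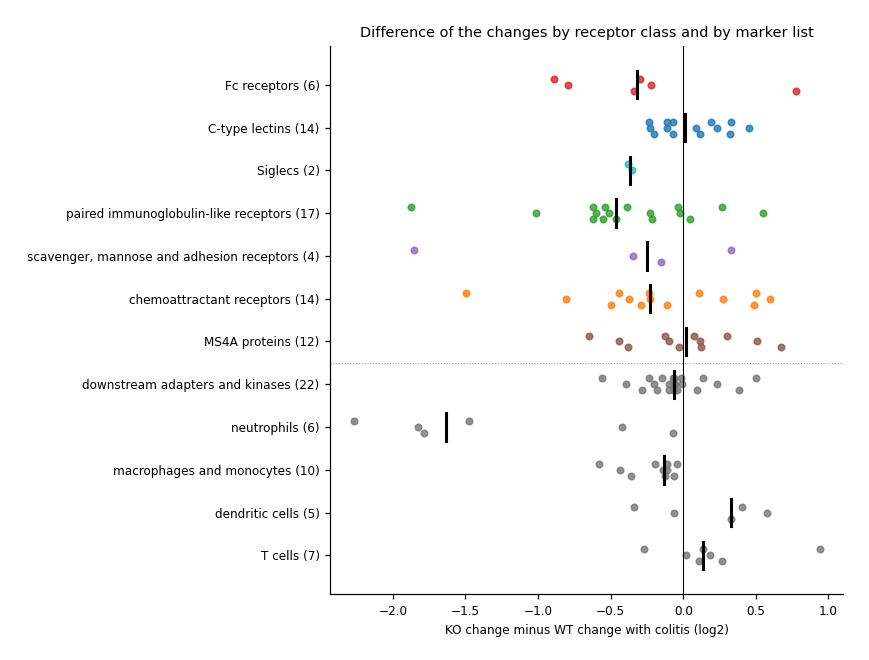
Difference of the changes with colitis (KO change minus WT change, log2) for each receptor gene by role, above the dotted line, and for genes of the downstream and marker lists in grey, below it. Each point is 1 gene, the black bar is the median and the number of genes stands in brackets. The paired receptors have a median of −0.46, the C-type lectins and MS4A proteins lie around 0, and neutrophil markers have a median of −1.63.

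Markers of the cells that carry these receptors moved as well. A marker is in the tables only if it was in a list, so high counts of listed markers are partly set by construction. Rises listed in both genotypes were found for 26.9% of all 5171 genes. Among genes with higher means in colitis in both genotypes, 53.2% had the smaller change in KO. Of 10 neutrophil markers 6 were in the tables, and their summed level went from 4.08 RPM in WT control to 187 in WT colitis and from 4.10 to 52.3 in KO. All 6 had smaller changes in KO, but the gap varied. Csf3r changed by 4.43 in WT and 2.95 in KO, and Retnlg by 3.44 and 3.02. Ltf, under the floor in both control groups and listed in KO only, had nearly equal changes of 4.94 and 4.87. S100a9 and S100a8 had the highest means in WT colitis (6.36 and 5.54) and weighed most in the sum of that group. S100a8 and Mmp8 were under the floor in both control groups, with colitis means of 5.54 and 1.71 in WT and of 2.88 and −0.90 in KO. Of 13 markers of macrophages and monocytes 10 were in the tables, and 9 rose in both genotypes, each with a smaller change in KO. Their summed level went from 912 to 2131 RPM in WT and from 986 to 2076 in KO. Mertk, the tenth, fell in both. In control all 10 had a higher mean in KO than in WT, by 0.04 to 0.35 log2 units. In colitis the median difference, KO minus WT, was −0.05, with a range from −0.39 to 0.15. The smaller KO changes thus came in part from the control means. The part of these cells in the differences of Trem3, Marco, Fpr1, Fpr2, Fcgr4 and the other receptors was not tested.

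All 7 T cell markers rose in both genotypes, with a summed level of 26.0 and 76.1 RPM in WT and 26.6 and 82.7 in KO, and 6 of the 7 changes were larger in KO. Their share in the values of Cxcr3, Ccr7 and Ms4a4b was not tested. Dendritic cells were represented by 5 of 6 markers, and the medians of these were 1.09 for WT and 1.19 for KO. Of these, Flt3, Itgax and Xcr1 had the larger change in KO and Batf3 (1.65 and 1.31) and Irf8 (1.21 and 1.15) in WT, and Xcr1, listed in KO only, had changes of 0.51 and 1.08. The general leukocyte gene Ptprc rose by 1.34 in WT and 1.48 in KO. Of 8 mast cell markers 5 were in the tables, with a median difference of the changes of −0.41, and they did not move together: Kit fell in both genotypes (−0.91 and −0.63), Mcpt1, Mcpt2 and Cpa3 rose in both, and Mcpt4 was listed in WT only. In WT control Kit had a mean of 7.53 log2 RPM, against −2.72 to −0.22 for the other mast cell markers in the tables. Which cells carry Kit here was not tested, nor was the part of mast cells in the values of Fcer1a. The eosinophil markers were represented by Il5ra and Ear2, which differed in opposite directions. Il5ra changed by 3.67 in WT and 1.43 in KO, and Ear2, listed in KO only, by 0.77 and 1.27. The B cell markers were represented by Cd79b, listed in KO only, with changes of 0.23 and 0.93. All 4 natural killer cell markers were in the tables, and 3 of the 4 changes were smaller in KO. In WT control all 4 were under the floor. The part of these cells in the receptor values was not tested. The 8 epithelial markers and the remaining markers of the other lists were not analysed here.

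The label of myeloid receptors held for most but not all of the 69 genes. A total of 12 are known mainly from lymphocytes or epithelium, among them Clec2h, Ms4a8a and Cxcr3, and had a median of 1.49 for WT and 1.37 for KO. For the other 57 it was 1.85 and 1.66. These still include Clec14a, known from endothelium. They also include Clec2i and Ms4a10, whose neighbours Clec2e, Clec2h, Ms4a8a and Ms4a18 were counted among the 12. The 57 are therefore not myeloid genes alone.

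Of the genes for proteins that signal below these receptors, most of those in the tables rose as well. Of 29 adapters, kinases, phosphatases and oxidase subunits 22 were in the tables, and 21 rose in WT and 22 in KO. Of all 5171 genes, 36.6% were listed as rising in WT and 44.8% in KO. Presence in the tables already requires a place in a list, so a high count is partly set by construction. Syk itself was not in the tables, nor were Hcst, Plcg2, Bcl10, Malt1, Ptpn11 and Gnai2. The medians of their changes were 1.06 for WT and 1.07 for KO. Tyrobp, the adapter of the Trem, Sirpb1, Pilrb and Clec5a receptors, went from 4.52 to 6.47 in WT and from 4.70 to 6.37 in KO. The kinase Fgr went from 2.73 to 4.64 in WT and from 2.93 to 4.45 in KO. Lcp2, a scaffold downstream of Syk, rose by 1.82 in WT and 1.72 in KO. For Card9, which links Syk-coupled lectins to NF-kappaB, the changes were 1.58 and 1.02, the largest gap of the list in that direction. Ptpn6, the phosphatase that ITIM receptors recruit, rose by only 0.38 and 0.48, and Cd47, the ligand of Sirpa, by 0.93 and 0.89. The change was smaller in KO for 17 of the 22 genes, with a median difference of −0.07.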

How the data were processed

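Whole colon RNA of 16 libraries in 4 groups was sequenced on a BGISEQ-500. Per the study's methods and notes, reads were mapped to GRCm38/mm10 with HISAT2 2.1.0. Uniquely mapped reads were counted over exons of merged transcripts in SeqMonk. Reads over annotated rRNA were removed because the authors had found rRNA contamination in some samples, which the methods do not name. The authors ran DESeq2 with 2 groups per comparison. Each of the 4 deposited tables holds the genes of 1 comparison that passed a false discovery rate of 0.05, the authors' false discovery rates, which were not used here, and the authors' log2 RPM mean of each group. Values of single libraries in the supplement were not used.

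Symbols were selected and changes taken as differences of means in Python 3.11.15 with pandas 2.3.3 and numpy 2.4.6. Figures were drawn with matplotlib 3.10.9. Gene models and exon lengths were those of GENCODE M21 (63 of 69 genes with identical coordinates). For 8 genes the tables' overlapping feature names another gene, so the symbol of the row was used. Low means lay on the steps of whole reads, with 0 set to 0.9 read, which gave the library sizes and the reads at low means. This step was tested on simulated data. The floor of 3 reads limits folds against means near 0 reads, and counting error remains in means just above it. Folds against a mean under the floor are lower bounds computed against it.

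Full values are given for the 2 genes of each role with the highest means and the 2 with the largest change in each genotype, for falling genes, and for the 5 largest differences in each direction, ranked with means raised to the floor. Other genes were named to complete their class. Members, gene lists and the octamer were chosen with earlier results of these data known. The tests foreseen for values of single libraries were not run. Alternatives were the floor, a filter, a pseudocount, means, centring and subsets of genes. The gene-level values of 1 member are not reported here, and it stays in the counts and medians.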

Additional observations from a re-analysis of the deposited data

How the results depend on the processing

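Over 34 medians and counts and 67 alternatives, 14 of them chosen after seeing the data, 61 values stayed within 0.2 log2 units (counts within 1.5-fold) and none of these changed sign. The 6 others concern the size of the rise. With a pseudocount of 1 RPM the median change over the receptors was 1.43 in WT and 1.33 in KO, and as a mean over genes it was 1.95 in WT. With means raised to 3 reads, the KO median was 1.70 for Fc, 1.54 for paired and 1.60 for activating receptors. The reason is that genes near 0 reads in control then count less. The median genotype differences over all receptors were no larger than about 0.2 units, so staying within that limit says little about them. The median difference of the changes was −0.20 as deposited and −0.15 with means raised to 3 reads. It was −0.14 with genes filtered at a mean of 0 log2 RPM or more and −0.11 with the pseudocount. No paired analysis was possible because the deposited group means carry no replicate numbers, and leaving out single replicates was not run for the same reason. Read counts by library in the study's supplement were not used. The depth limits Fpr1, whose KO control mean was under 3 reads per library and whose difference between the changes went from −0.50 to −0.98 with means raised to the floor, and Clec4b1, whose difference turned from −0.23 to 0.21. It also limits Trem3, Fcer1a, Pira2, Marco and the Sirpb1 genes, whose control means were under 3 reads per library. Fpr2 is limited too, since its control means of 3.30 (WT) and 4.16 (KO) reads per library lay just above the floor.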
